A study of Mus musculus with 6 samples.

Results

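The genes described here encode the ligands, receptors, Smads, Id targets, antagonists and latency proteins of the BMP, TGF-β and activin pathways. They were taken by name, as 39 of the 55414 genes listed by Ensembl identifier in the mRNA counts, and all 39 were found. They were followed in *Pdx1-Cre* lineage cells sorted at E10.5 from WT embryos and from embryos without the *mir-302* cluster (KO), with 3 libraries of each genotype. Every library was labelled as *Pdx1-Cre*-positive and tdTomato-positive, and the genotype labels differ in miR-302 status alone. *Pdx1-Cre* is a transgene whose recombination switched on tdTomato from the *Rosa26* locus, so the sorted cells are all trunk cells with a history of *Pdx1-Cre* activity and not only multipotent pancreatic progenitors (MPCs). The *mir-302* deletion was carried in the germline and therefore in every cell of the KO embryo. The labels do not say whether the libraries came from separate embryos or from pools, and p-values then measure only the spread between these libraries.

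Ligands of this family bind pairs of type I and type II receptor kinases. BMP receptors phosphorylate Smad1, Smad5 and Smad9, whereas TGF-β and activin receptors phosphorylate Smad2 and Smad3, and both sets enter the nucleus with Smad4. Smad6 and Smad7 inhibit the receptors, Id genes are classical targets of BMP Smads, and secreted antagonists such as Noggin, Chordin, Gremlin and Follistatin hold ligands away from their receptors. In the foregut endoderm, BMP from nearby mesoderm is known to favor liver fate, and activin signals from the notochord are known to help permit the dorsal pancreatic program.

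The deleted cluster lies on mouse chromosome 3, and 3 of its mature miRNAs are shown because the seed, bases 2 to 8, sets which 3′UTRs they can pair with. The capitals mark bases 2 to 8 as RefSeq gives the sequence on GRCm38.p6. miR-302b-3p and miR-302d-3p have the same seed. The RefSeq entry of miR-302c-3p begins 1 base later along the shared sequence, so that its bases 2 to 8 read AGUGCUU. The 5p arms, miR-302a-3p and miR-367-3p are named only. miR-367-3p has another seed, AUUGCAC, and matches to it and to the 5p arms were not searched.
miR-302b-3p (chr3:127545275-127545297, plus strand): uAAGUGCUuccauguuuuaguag
miR-302d-3p (chr3:127545665-127545687, plus strand): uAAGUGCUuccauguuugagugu
miR-302c-3p (chr3:127545406-127545427, plus strand): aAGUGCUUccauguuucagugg

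Matches to the AAGUGCU seed were searched on the sense strand, in the longest of each gene's annotated 3′UTRs (GENCODE M21, GRCm38), as AGCACTT with or without an A after it, or as GCACTTA. These forms overlap, and each site was counted once. A match was found in 6 of the 31 genes that could be tested (19.4%), beside 2834 of all 13768 tested genes with an annotated 3′UTR (20.6%). The 6 genes were *Gdf11*, *Acvr1*, *Acvrl1*, *Tgfbr1*, *Smad2* and *Smad5*. Of the genes with too few counts to test, *Inhba* and *Inhbb* also held a match. The following 30-base windows hold both 8-base matches in the list and the single matches of *Tgfbr1* and *Acvr1*, each printed 5′ to 3′ on the transcript's strand with the match in capitals.
Smad5 (chr13:56741475-56741504, GRCm38, plus strand): gtcagtgctcgAGCACTTAgcaggcatcga
Gdf11 (chr10:128883517-128883546, GRCm38, minus strand): gatgaattctgAGCACTTAccacgggcact
Tgfbr1 (chr4:47411108-47411137, GRCm38, plus strand): gcactaaatgaAGCACTTctgattttcact
Acvr1 (chr2:58446858-58446887, GRCm38, minus strand): ttattactggtGCACTTAgcggtttgtttg

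*Smad5* had a second, shorter match and *Gdf11* had 2 more. Their log2 fold changes of KO over WT were -0.31 and -0.01, and those of *Tgfbr1*, *Acvr1*, *Smad2* and *Acvrl1* were -0.13, -0.24, 0.12 and 0.39. None of the 6 had an unadjusted edgeR p under 0.05.

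Total counts ran from 17352498 to 26634523 per library, and libraries of 1 genotype differed by more than counting noise (chi-square over degrees of freedom, 25.3 to 41.0). The cluster's own genes could not check the labels, since *Mir302d* had 2 counts in KO replicate 3 and the other 4 genes had 0 counts in all 6 libraries, under the floor of 3 counts. The 12 markers of pancreatic progenitors summed to 1017 to 1166 CPM (TMM-normalized counts scaled to library size) in WT and 1035 to 1285 CPM in KO, and all of them were detected. *Pdx1* itself was at 73.1 to 107.5 CPM. The 10 blood markers reached a sum of 13468 CPM in WT replicate 3, one of 5318 CPM in KO replicate 1, and came to 291 CPM or less in the other libraries. The 12 mesenchymal markers summed to 54.9 CPM in KO replicate 2, where 5 of them were at 0, against 199 to 1367 CPM in the other libraries. In such bulk RNA, fewer cells of a type and less RNA per cell cannot be told apart.

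Of the 39 genes, 31 passed the filter on low counts. Levels between genes were compared per kilobase of exon. *Id3*, *Id2* and *Id1* led the list at 186, 160 and 90.3 CPM per kb, as means of WT and KO, and the libraries of *Id3* and *Id2* overlapped. *Bmp7* followed at 32.8 and *Tgfbr1* at 29.2 CPM per kb, also with overlapping libraries. A group of Smads and receptors lay close together between 9.53 and 13.5 CPM per kb, in the order *Smad1*, *Smad3*, *Bmpr1a*, *Acvr2a*, *Smad5* and *Smad2*, and the ranges of neighbors in this order overlapped. *Smad4*, the partner of both branches, was at 3.44 CPM per kb. *Inhba*, which encodes the activin A subunit, was the lowest at 0.0171 CPM per kb.

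**Figure D1:**
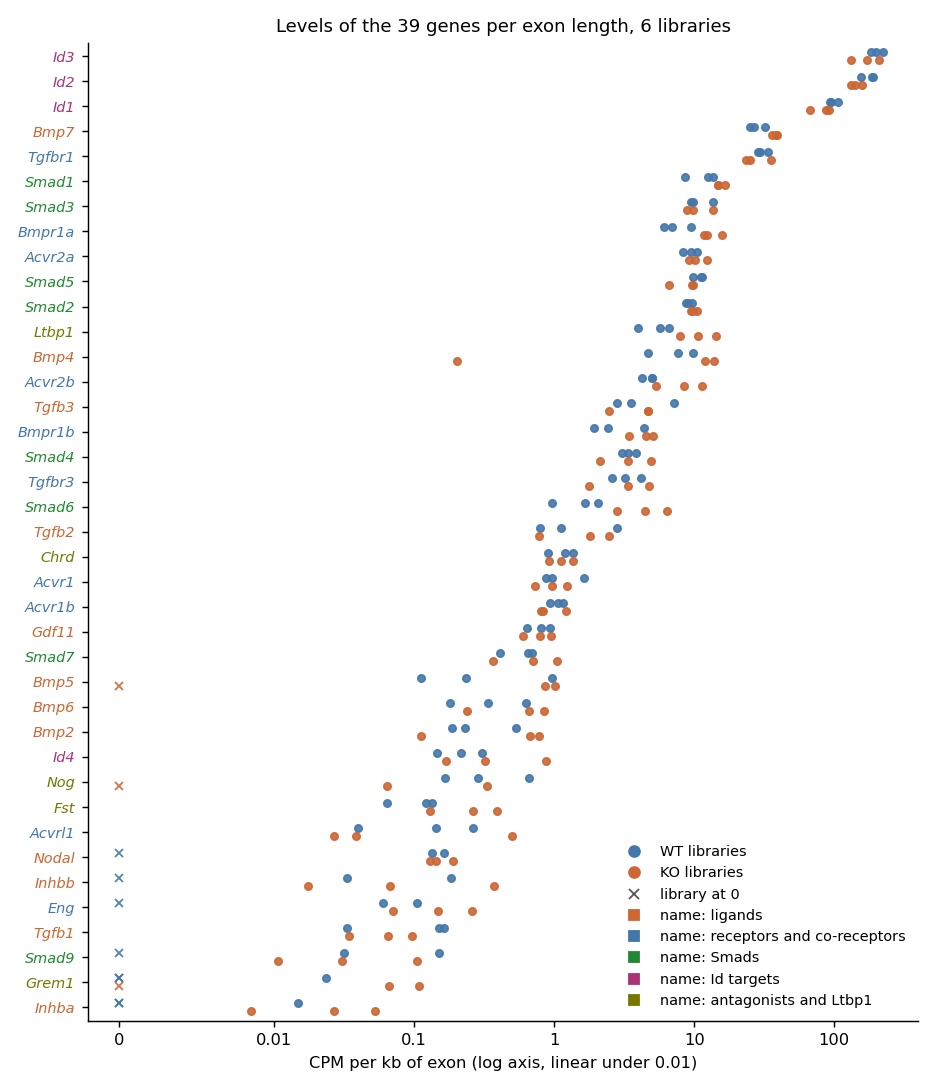
Levels of all 39 genes in CPM per kilobase of exon (log axis, linear under 0.01) with 1 point per library, WT in blue and KO in orange, ordered by mean level; crosses are libraries at 0. The 3 abundant Id genes, *Bmp7* and *Tgfbr1* lie highest, and the *Bmp4* point far to the left is KO replicate 2.

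No gene of the list passed the threshold between KO and WT when edgeR's quasi-likelihood p-values were adjusted (Benjamini-Hochberg) over 16353 genes, and the smallest adjusted p in the list was 0.163. The same test called 0% of all genes. At an unadjusted p under 0.05, 7 genes of the list were higher in KO, beside 6.42% of all genes tested, and 1 was lower, beside 3.97%. The 7 were *Bmp7*, *Bmpr1a*, *Acvr2b*, *Smad1*, *Smad6*, *Fst* and *Ltbp1*, and the 1 lower gene was *Id2*. DESeq2's Wald test, run as an alternative, gave 5 of the 29 genes for which it returned an adjusted p as higher in KO (*Bmp7*, *Bmpr1a*, *Acvr2b*, *Smad6* and *Ltbp1*), beside 4.22% of all genes, and 0 as lower, beside 0.648%. In 6 genes every KO library lay above every WT library (8.36% of all genes), and in 1 gene, *Id1*, every KO library lay below (7.99%). The median log2 fold change of the 31 genes was 0.17, beside -0.02 over all genes tested, and -0.01 over the 33 genes of the list tested without KO replicate 1.

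**Figure D2:**
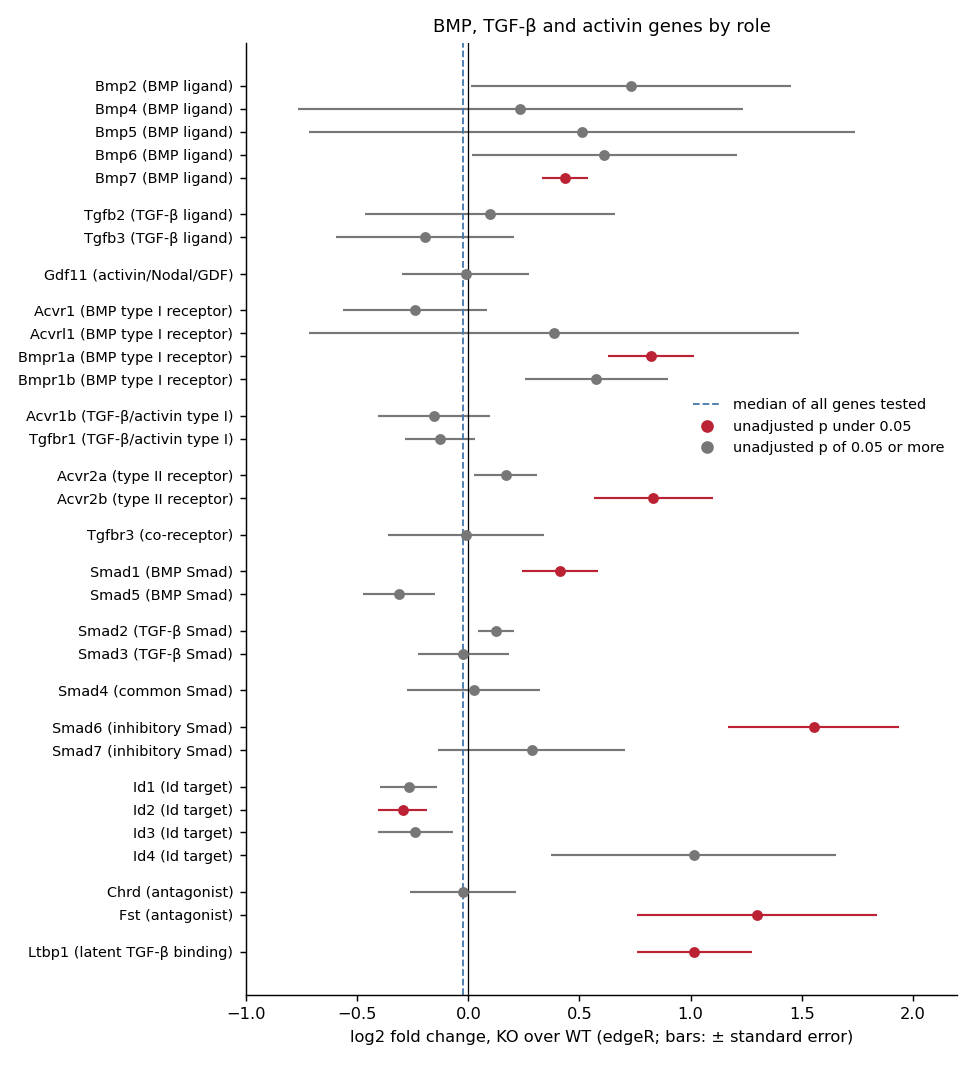
Log2 fold change of KO over WT for the 31 genes tested, by role, with bars of 1 standard error from edgeR. Red points have an unadjusted p under 0.05 and the dashed line is the median of all genes tested at -0.02; the points furthest right are *Smad6* (1.55), *Fst* (1.30) and *Ltbp1* (1.02).

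A property of the transcripts moved with these results. In each of the 7 higher genes, some 200-base window of the transcript was 75% GC or more, as in 11 of the 23 genes with an unadjusted p of 0.05 or more. Of the 16312 tested genes with a transcript sequence, 20.1% had such a stretch. With it, 22.7% of genes were higher in KO at an unadjusted p under 0.05 and 2.38% were lower, whereas without it 2.33% were higher and 4.34% were lower. The median log2 fold change in the list was 0.42 for the 18 genes with the stretch and -0.15 for the 13 without it. Over all genes tested, the same medians were 0.14 and -0.05. With offsets that remove a trend with this GC share in each library, the median of the 31 genes was 0.03 instead of 0.17, beside 0.01 over all genes tested. With the same offsets, *Bmp7*, *Bmpr1a*, *Acvr2b*, *Smad6* and *Ltbp1* kept an unadjusted edgeR p under 0.05, and the values of all 7 are given below beside the results. The part of GC content in these differences was otherwise not tested.

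Of the 12 ligand genes, 8 were tested, and their median log2 fold change was 0.33, with 1 gene at an unadjusted p under 0.05. *Bmp7* (ENSMUSG00000008999.8), a BMP expressed by many embryonic epithelia, was at 107.7, 128.5 and 100.8 CPM in WT replicates 1, 2 and 3 and reached 153.5, 157.9 and 143.6 CPM in KO. All KO libraries lay above all WT libraries, and the spread within KO was the smaller one. Mean and SD (n = 3) were 112.3 ± 14.4 CPM for WT and 151.7 ± 7.36 CPM for KO, a fold of 1.35. Its log2 fold change was 0.43 (standard error, SE, 0.10, adjusted p = 0.165 in edgeR, adjusted p = 0.0159 in DESeq2). With GC offsets it was 0.35.

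The other BMP genes were lower per kilobase of exon, at 8.02 CPM per kb for *Bmp4* and 0.419 to 0.529 CPM per kb for *Bmp2*, *Bmp6* and *Bmp5*, and their libraries overlapped between genotypes. *Bmp2*, *Bmp5* and *Bmp6* lay between 0 and 4.06 CPM in every library, with log2 fold changes of 0.73, 0.51 and 0.61 and standard errors of 0.72, 1.23 and 0.60. *Bmp4*, which mesoderm near the foregut is known to express, was at 17.3, 10.502 and 21.9 CPM in WT replicates 1, 2 and 3, against 31.3, 0.456 and 26.7 CPM in KO replicates 1, 2 and 3. KO replicate 2 thus stood far below the others, while both other KO libraries lay above all WT libraries. The log2 fold change of *Bmp4* was 0.23 (SE 1.00, adjusted p = 0.97 in edgeR) and without KO replicate 2 it was 0.82 (SE 0.30, adjusted p = 0.356 in edgeR).

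The TGF-β ligand genes *Tgfb2* and *Tgfb3* overlapped between genotypes. *Tgfb2* was at 4.57, 6.42 and 16.3 CPM in WT and 14.2, 4.50 and 10.4 CPM in KO, and *Tgfb3* at 11.97, 9.50 and 24.4 CPM in WT and 15.7, 8.37 and 15.9 CPM in KO. In both genes WT replicate 3 was the highest library and KO replicate 2 the lowest. Their log2 fold changes were 0.10 and -0.19 with standard errors of 0.56 and 0.40. *Gdf11*, a ligand known to limit the number of endocrine progenitors in the pancreas, was at 2.57 to 3.80 CPM in WT and 2.45 to 3.88 CPM in KO, with a log2 fold change of -0.01 (SE 0.29). It was the tested ligand whose levels lay closest between the genotypes.

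Activin, Nodal and *Tgfb1* transcripts were near the detection limit. *Inhba* had 2, 0 and 0 counts in WT and 9, 3 and 1 counts in KO, so the WT total of 2 was under the floor of 3 counts. *Inhbb*, the activin B subunit gene, had 3, 14 and 0 counts in WT and 2, 5 and 29 in KO. *Nodal* had 0, 5 and 7 counts in WT and 8, 7 and 5 in KO, and *Tgfb1* had 16, 3 and 17 in WT and 13, 3 and 6 in KO. The genotypes overlapped in all 4 genes, and a difference was not detectable at this depth, where 1 count is 0.0373 to 0.057 CPM.

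Of the 10 receptors and co-receptors, 9 were tested and 2 had an unadjusted p under 0.05, both higher in KO. *Bmpr1a* (ENSMUSG00000021796.16), the main BMP type I receptor of early embryos, was at 43.9, 60.7 and 38.5 CPM in WT and 99.9, 74.3 and 78.2 CPM in KO. The lowest KO library lay above the highest WT library. Mean and SD (n = 3) were 47.7 ± 11.6 CPM for WT and 84.2 ± 13.8 CPM for KO, a fold of 1.77. The log2 fold change was 0.82 (SE 0.19, adjusted p = 0.163 in edgeR, adjusted p = 0.00168 in DESeq2), and 0.56 with GC offsets. *Bmpr1b*, a second BMP type I receptor, was at 14.3, 11.4 and 26.1 CPM in WT and 20.2, 26.9 and 30.3 CPM in KO, with a log2 fold change of 0.58 (SE 0.32, adjusted p = 0.617 in edgeR). WT replicate 3 lay among its KO libraries.

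*Acvr2b* (ENSMUSG00000061393.15), a type II receptor shared by activins, GDFs and BMPs, was at 16.5, 19.5 and 19.7 CPM in WT and 44.9, 33.3 and 20.95 CPM in KO. KO replicate 3 lay just above the highest WT library. Mean and SD (n = 3) were 18.6 ± 1.77 CPM for WT and 33.1 ± 12.0 CPM for KO. KO over WT gave a log2 fold change of 0.83 (SE 0.27, adjusted p = 0.297 in edgeR, adjusted p = 0.0349 in DESeq2), and 0.73 with GC offsets. Without KO replicate 1 it was 0.56 and without WT replicate 1 it was 0.76, and in both cases the unadjusted p was no longer under 0.05. *Acvr2a*, its paralog, was at 47.1 to 59.4 CPM in WT and 52.5 to 69.8 CPM in KO, with a log2 fold change of 0.17 (SE 0.14). The difference between the 2 paralogs' log2 fold changes was not tested.

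*Tgfbr1* (ENSMUSG00000007613.16), the TGF-β type I receptor and the receptor gene with the highest level per kilobase, was at 193, 186 and 220 CPM in WT and 154, 164 and 230 CPM in KO. KO replicate 3 was the highest of all libraries and the other 2 KO libraries were the lowest. Its log2 fold change was -0.13 (SE 0.16, adjusted p = 0.876 in edgeR). *Acvr1b*, the activin type I receptor, was at 4.13 to 5.14 CPM in WT and 3.54 to 5.33 CPM in KO, and *Acvr1*, a BMP type I receptor, at 4.19 to 7.87 and 3.53 to 5.93 CPM. The co-receptor *Tgfbr3* was at 17.0 to 27.1 CPM in WT and 11.6 to 31.0 CPM in KO. None of these 4 receptors had an unadjusted edgeR p under 0.05. *Acvrl1*, known for its role in endothelium, was at 0.613, 0.168 and 1.12 CPM in WT and 2.12, 0.114 and 0.163 CPM in KO. Its log2 fold change of 0.39 (SE 1.10) became -2.14 without KO replicate 1. The endothelial co-receptor *Eng* had 9, 0 and 5 counts in WT and 28, 5 and 11 in KO and was not tested.

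Among the Smads, 7 of 8 were tested, and *Smad1* and *Smad6* had an unadjusted p under 0.05. *Smad6* (ENSMUSG00000036867.8), the inhibitory Smad that acts mostly on the BMP branch, had the largest log2 fold change of the 31 genes. It was at 3.11, 6.59 and 5.29 CPM in WT and 20.6, 14.3 and 8.92 CPM in KO, so that each KO library lay above each WT library. Mean and SD (n = 3) were 4.998 ± 1.76 CPM for WT and 14.6 ± 5.87 CPM for KO, a fold of 2.93. The log2 fold change was 1.55 (SE 0.38, adjusted p = 0.171 in edgeR, adjusted p = 0.00135 in DESeq2), and 1.29 with GC offsets. *Smad6* is also expressed by endothelium. The 12 endothelial markers summed to 44.8, 43.5 and 29.96 CPM in WT and 67.9, 13.4 and 41.1 CPM in KO, and their part in the level of *Smad6* was not tested.

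*Smad7*, the other inhibitory Smad, was at 2.92, 3.13 and 1.84 CPM in WT and 4.70, 1.65 and 3.21 CPM in KO. Its genotypes overlapped, with a log2 fold change of 0.28 (SE 0.42, adjusted p = 0.906 in edgeR). The difference between *Smad6* and *Smad7* was not tested.

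The BMP receptor Smads lay in opposite directions. *Smad1* (ENSMUSG00000031681.17) was at 78.5, 85.8 and 53.7 CPM in WT and 104.2, 92.7 and 93.2 CPM in KO, with no overlap. Its log2 fold change was 0.41 (SE 0.17, adjusted p = 0.457 in edgeR, adjusted p = 0.227 in DESeq2), and 0.25 with GC offsets. With single libraries left out, its unadjusted p stayed under 0.05 without WT replicate 2 and without WT replicate 3 only. *Smad5* was at 72.3, 84.6 and 82.7 CPM in WT and 48.9, 71.6 and 72.8 CPM in KO. KO replicate 3 just passed the lowest WT library, and the log2 fold change was -0.31 (SE 0.16, adjusted p = 0.591 in edgeR). *Smad9* had 17, 3 and 0 counts in WT and 15, 1 and 3 in KO and was not tested.

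The Smads of the TGF-β branch and the common Smad overlapped between genotypes. *Smad2* was at 84.0, 79.0 and 77.2 CPM in WT and 83.5, 85.6 and 92.6 CPM in KO, with a log2 fold change of 0.12 (SE 0.08, the smallest of the list, adjusted p = 0.698 in edgeR). *Smad3* was at 52.2, 75.3 and 54.7 CPM in WT and 54.2, 49.2 and 75.97 CPM in KO (log2 fold change -0.02, SE 0.21), and *Smad4* at 14.2, 12.5 and 11.3 CPM in WT and 18.3, 12.5 and 7.84 CPM in KO (log2 fold change 0.02, SE 0.30). Counted together, the 6 tested type I receptors and receptor Smads of the BMP branch had a median log2 fold change of 0.40. They ran from -0.31 to 0.82, with 2 below 0. Their median lay between *Smad1* at 0.41 and *Acvrl1* at 0.39, and the latter became -2.14 without KO replicate 1. The 4 of the TGF-β branch had a median of -0.08 and ran from -0.15 to 0.12. The difference between the branches was not tested.

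**Figure D3:**
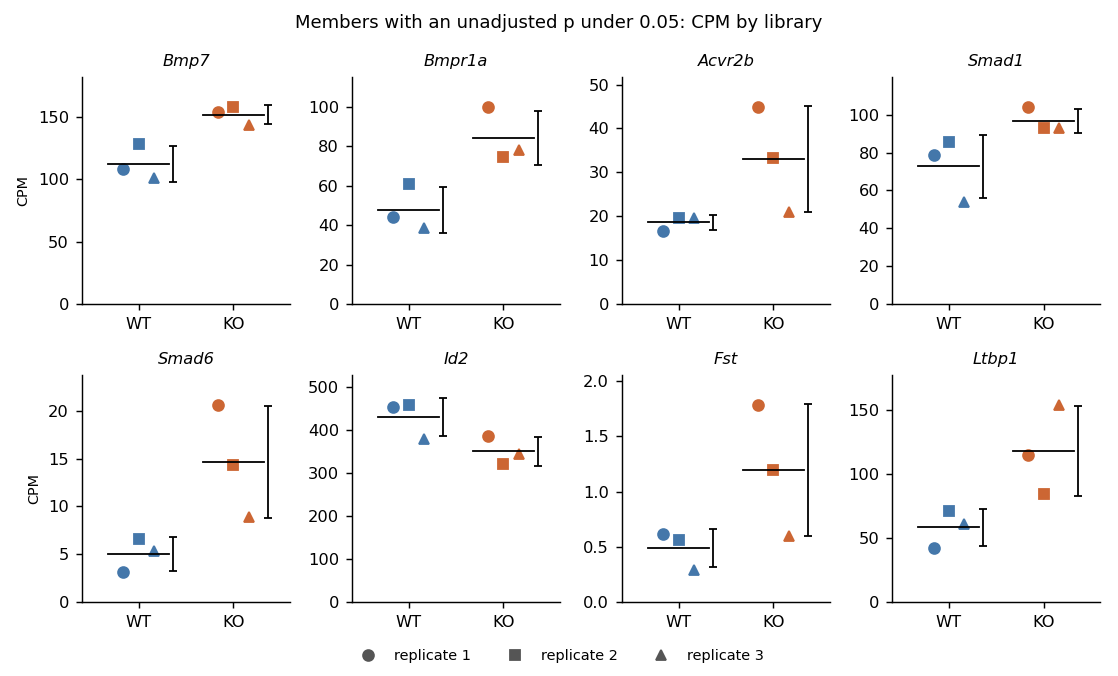
CPM by library of the 8 genes with an unadjusted edgeR p under 0.05, each on its own linear axis from 0; points are libraries (shapes give replicate numbers), horizontal lines the means and vertical bars 1 SD, n = 3. Every KO library lies above every WT library in 6 panels, whereas *Fst* and *Id2* overlap between genotypes.

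*Id1*, *Id2* and *Id3*, the most abundant members, had negative log2 fold changes of -0.27, -0.30 and -0.24, while the low *Id4* had one of 1.01 (SE 0.64). The median of the 4 was -0.25. *Id2* (ENSMUSG00000020644.10) was at 453, 459 and 379 CPM in WT and 387, 321 and 344 CPM in KO. WT replicate 3 lay below KO replicate 1, and the other libraries kept apart. Mean and SD (n = 3) were 430.4 ± 44.3 CPM for WT and 350.5 ± 33.6 CPM for KO. KO over WT gave a log2 fold change of -0.30 (SE 0.11, adjusted p = 0.40 in edgeR, adjusted p = 0.342 in DESeq2), and -0.26 with GC offsets. Its most GC-rich stretch held 65.5% GC, under the limit of 75%. Leaving out single libraries gave *Id2* log2 fold changes of -0.36 to -0.22, and its unadjusted p stayed under 0.05 only without WT replicate 3 and without KO replicate 1.

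*Id1* (ENSMUSG00000042745.10) was at 124.5, 108.2 and 110.7 CPM in WT and 100.7, 106.3 and 78.1 CPM in KO. The genotypes did not overlap, with KO replicate 2 just under the lowest WT library. The log2 fold change was -0.27 (SE 0.13, adjusted p = 0.539 in edgeR). *Id3* was at 402, 327 and 355 CPM in WT and 376, 305 and 238 CPM in KO, with a log2 fold change of -0.24 (SE 0.17, adjusted p = 0.737 in edgeR) and overlapping libraries. *Id4* was at 0.559 to 1.18 CPM in WT and 0.653 to 3.36 CPM in KO, where KO replicate 2 was the highest.

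**Figure D4:**
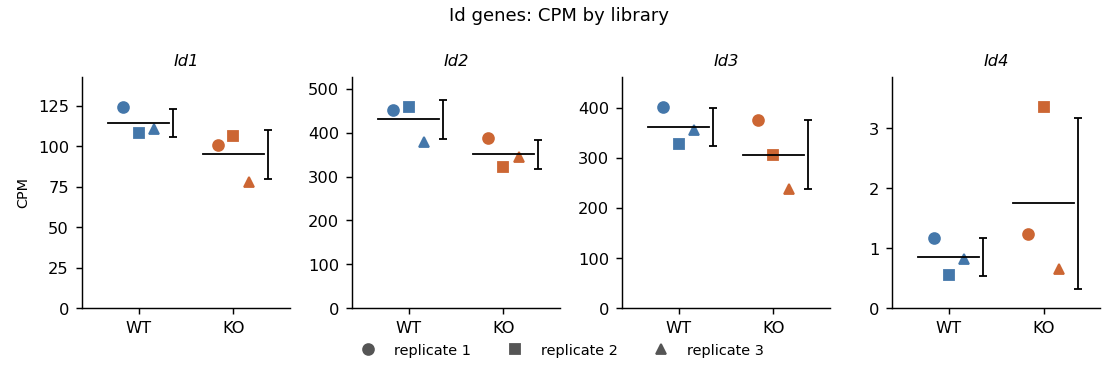
CPM by library of the 4 Id genes, each on its own linear axis from 0, with means as horizontal lines and 1 SD as vertical bars (n = 3). KO libraries lie below WT libraries without overlap for *Id1* alone, and *Id2* and *Id3* overlap.

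Of the 4 antagonists and *Ltbp1*, 3 genes were tested. *Ltbp1* (ENSMUSG00000001870.17), which tethers latent TGF-β to the matrix, was at 42.4, 70.9 and 61.1 CPM in WT and 114.6, 84.2 and 154.1 CPM in KO. All KO libraries lay above all WT libraries, and KO replicate 2, where the summed mesenchymal markers were lowest, was the closest of them to WT. Within WT the order was otherwise, as *Ltbp1* was highest in WT replicate 2, where that sum was lowest in WT at 199 CPM. Mean and SD (n = 3) were 58.1 ± 14.5 CPM for WT and 117.6 ± 35.0 CPM for KO, a fold of 2.02. KO over WT gave a log2 fold change of 1.02 (SE 0.26, adjusted p = 0.18 in edgeR, adjusted p = 0.00125 in DESeq2), and 0.84 with GC offsets.

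*Fst* (ENSMUSG00000021765.10), whose product Follistatin binds activins, was at 0.613, 0.559 and 0.291 CPM in WT and 1.79, 1.196 and 0.599 CPM in KO. KO replicate 3 lay within the WT range. The log2 fold change was 1.30 (SE 0.54, adjusted p = 0.464 in edgeR), and 1.07 with GC offsets. DESeq2 gave no adjusted p for this gene, and its unadjusted edgeR p stayed under 0.05 in 1 of 6 fits with a library left out, that without KO replicate 3. *Chrd*, which encodes the BMP antagonist Chordin, was at 5.68 to 8.55 CPM in WT and 5.77 to 8.49 CPM in KO, with a log2 fold change of -0.02 (SE 0.24).

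The remaining antagonists were too low to test. *Nog* had 6, 20 and 10 counts in WT and 15, 0 and 2 in KO. *Grem1*, which mesenchyme is known to express, had 0, 0 and 2 counts in WT and 12, 0 and 5 in KO. Its WT total of 2 was under the floor of 3 counts, so no fold is given.

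The blood markers stood apart in WT replicate 3 and KO replicate 1. Without both, in an alternative added after the data were seen, 6 genes of the list had an unadjusted edgeR p under 0.05. The share of all genes in that fit is not given here. *Bmp7*, *Bmpr1a*, *Smad6* and *Ltbp1* then had log2 fold changes of 0.38, 0.57, 1.28 and 1.10, each at an unadjusted p under 0.05. *Id2* was at -0.43 and *Bmpr1b* at 1.18, and both passed the same limit. *Acvr2b*, *Smad1* and *Fst* were at 0.61, 0.20 and 0.63 and did not pass it. With any single library left out, *Bmp7*, *Bmpr1a*, *Smad6* and *Ltbp1* stayed under it in each of the 6 fits. Their adjusted edgeR p in those fits ran from 0.0515 to 0.495. These genes had the smallest unadjusted p of the list with all libraries, so staying under the limit is no separate support.

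A few genes of the list were low in KO replicate 2. This library was chosen after its values were seen, and the counts are a description. *Bmp2*, *Bmp4*, *Bmp5* and *Acvrl1*, 4 of the 31 genes tested, were lowest in this library and under 25% of the mean of the other 5 libraries there, as were 9 of 11 tested mesenchymal markers, 4 of 8 endothelial, 3 of 10 liver, 2 of 9 blood and 1 of 12 gut epithelial markers, and 2.93% of all genes tested. *Bmp4* was at 2.12% of that mean and *Bmp5* had 0 counts. *Acvrl1* had 2 counts in KO replicate 2, against 3 in WT replicate 2 and 3 in KO replicate 3, so its place as lowest rests on counts at the floor. *Col1a1* and *Col3a1*, fibrillar collagens of mesenchyme, were at 0 there and at 34.7 CPM or more and 62.1 CPM or more in every other library. *Pdgfra*, a mesenchymal receptor, was at 0.912 CPM against 9.22 to 71.6 CPM. No pancreatic progenitor or neural marker met the same limit. *Bmp2* did not follow the mesenchymal sum elsewhere, with its highest WT level in WT replicate 2, where that sum was lowest in WT. The part of other cell types in the levels of *Bmp4* and *Bmp5* was not tested.

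The same library was low for a set of other genes of these pathways. From 91 further ligands, receptors, regulators and targets, 69 were tested, and 10 of them met the limit in KO replicate 2. These were *Gdf6*, *Gdf10*, *Lrrc32*, *Thbs1*, *Fbn1*, *Msx1*, *Msx2*, *Tgfbi*, *Cdkn2b* and *Gata3*. *Msx1*, a classical BMP target of mesenchyme, was at 0.171 CPM there and at 2.346 to 22.4 CPM elsewhere, and *Thbs1*, an activator of latent TGF-β, at 3.87 CPM against 68.1 to 137.1 CPM.

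**Figure D5:**
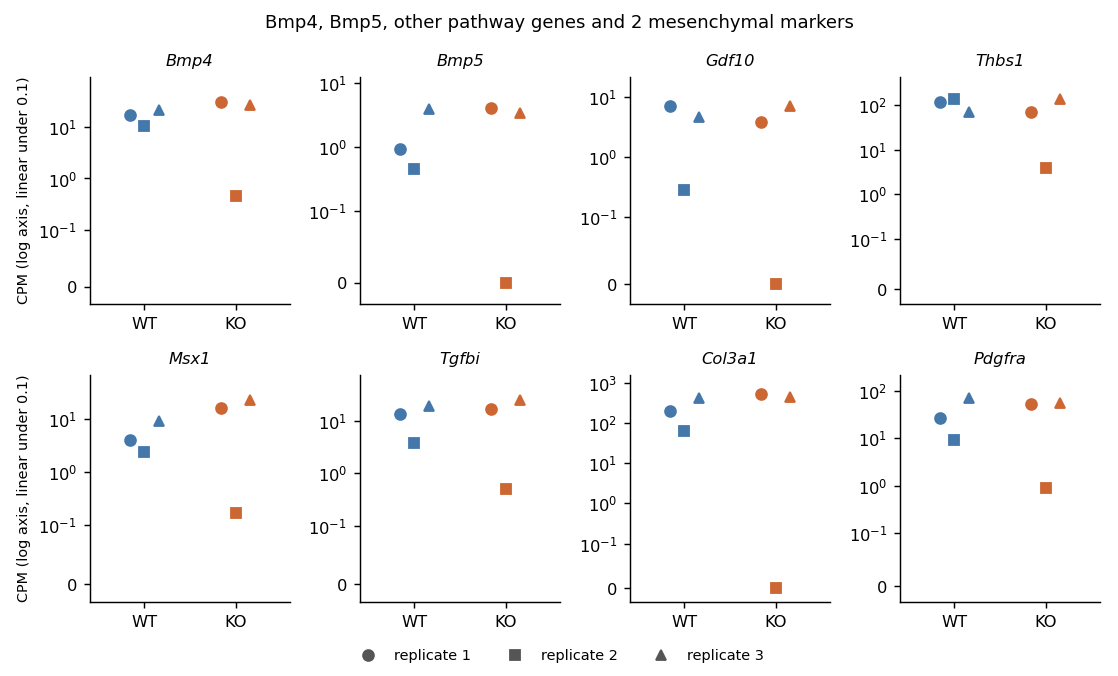
CPM by library (log axis, linear under 0.1) of *Bmp4*, *Bmp5*, 4 other pathway genes and the mesenchymal markers *Col3a1* and *Pdgfra*; shapes give replicate numbers and each panel has its own axis. KO replicate 2 (orange square) is the lowest library in every panel, and is at 0 for *Bmp5*, *Gdf10* and *Col3a1*. The genes shown were picked from those lowest in this library, so its place was fixed by that choice. The mesenchymal markers *Pdgfrb* and *Foxf1*, not shown, were lower in another library.

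The 69 other pathway genes were centered at the median of all genes, with a median log2 fold change of -0.02, 33 above 0 and 36 below. None passed edgeR's adjusted threshold, and the smallest adjusted p was 0.132. At an unadjusted edgeR p under 0.05, 8 were higher in KO (6.42% of all genes) and 4 lower (3.97%), while DESeq2 gave 7 of 62 as higher (4.22%) and 0 as lower (0.648%). A pair of regulators with opposed levels encode ubiquitin ligases that target receptor complexes and Smads. *Smurf1* was at 6.98, 8.21 and 4.52 CPM in WT and 18.8, 19.9 and 8.71 CPM in KO (log2 fold change 1.27, SE 0.36, adjusted p = 0.229 in edgeR). *Smurf2* was at 15.2, 15.4 and 14.1 CPM in WT and 10.473, 11.1 and 8.87 CPM in KO (log2 fold change -0.55, SE 0.16, adjusted p = 0.227 in edgeR).

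The kinase gene *Map3k7*, which encodes TAK1, and the gene of its adaptor, *Tab2*, also lay on opposite sides. *Map3k7* was at 22.2, 46.2 and 25.5 CPM in WT and 104.3, 79.6 and 66.9 CPM in KO (log2 fold change 1.42, SE 0.30, adjusted p = 0.14 in edgeR), and every KO library exceeded every WT library. *Tab2* was at 21.5, 13.1 and 17.5 CPM in WT and 13.1, 8.60 and 11.97 CPM in KO (log2 fold change -0.63, SE 0.24, adjusted p = 0.414 in edgeR), with 1 KO library inside the WT range.

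Further genes higher in KO at that limit lay at several steps of the pathway. *Rgmb*, a BMP co-receptor, was at 7.82, 12.8 and 7.23 CPM in WT and 25.3, 25.1 and 18.8 CPM in KO (log2 fold change 1.31, SE 0.26, adjusted p = 0.132 in edgeR). *Bmp1*, which encodes a protease that cleaves Chordin and procollagens and is not a BMP-type ligand, was at 18.1, 42.1 and 22.6 CPM in WT and 84.2, 75.9 and 54.1 CPM in KO (log2 fold change 1.37, SE 0.33, adjusted p = 0.164 in edgeR). The protease gene *Htra1*, the Smad phosphatase gene *Ppm1a*, the Smad-binding regulator gene *Tob1* and the BMP antagonist gene *Nbl1* had log2 fold changes of 1.49, 0.82, 0.50 and 0.85, and their genotypes did not overlap.

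On the lower side were *Bmpr2* and *Hey1*. *Bmpr2*, the BMP type II receptor, was at 4.57, 4.69 and 4.66 CPM in WT and 3.32, 2.79 and 3.54 CPM in KO (log2 fold change -0.53, SE 0.22, adjusted p = 0.457 in edgeR), with no overlap. *Hey1*, a target of both Notch and BMP signals, was at 26.9, 20.8 and 29.4 CPM in WT and 16.4, 21.1 and 15.999 CPM in KO (log2 fold change -0.53, SE 0.19, adjusted p = 0.36 in edgeR), and its libraries overlapped. All 12 of these genes, the lower ones included, held such a GC-rich window, and *Rgmb*, *Ppm1a* and *Smurf2* held 1, 2 and 1 matches to the miR-302 seed. With GC offsets the log2 fold changes of *Smurf2*, *Bmpr2*, *Tab2* and *Hey1* were -0.82, -0.62, -0.89 and -0.68, further from 0 than without. Those of *Rgmb*, *Map3k7*, *Bmp1*, *Htra1*, *Ppm1a*, *Smurf1*, *Tob1* and *Nbl1* were 1.07, 1.19, 1.16, 1.34, 0.54, 0.99, 0.32 and 0.63, all nearer to 0, and *Nbl1* no longer had an unadjusted p under 0.05.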

How the data were processed

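Whole-number counts per gene were deposited by the authors without normalization. The authors aligned 150-bp read pairs of SMART-seq v4 cDNA to GRCm39 with STAR and counted them with GenomicAlignments. Gene annotation, strand handling and the treatment of reads shared between genes are not given in the sources used here, so overlapping or near-identical genes are uncertain. From these counts, edgeR 4.0.16 (R 4.3.3) was run over all genes with filterByExpr, TMM factors, glmQLFit and glmQLFTest, with genotype as the only term and Benjamini-Hochberg adjustment, called at 0.05. Standard errors came from the F statistic of each fold change. DESeq2 1.42.0, a version of the tool the authors used for differential expression, was an alternative. At an adjusted p under 0.05 it gave 606 genes as higher and 93 as lower in KO, the same numbers that the paper reports. Exon lengths, GC content and 3′UTRs came from GENCODE M21 (GRCm38), which gave a transcript sequence for 99.7% of tested genes. The library totals set the precision of low genes, and the floor of 3 counts covers counting error only. An exact permutation test of 3 libraries against 3 cannot go below p = 0.1, so none is given.

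The members, lists and alternatives were chosen with earlier results of these data known. The rule for full statistics took members with an unadjusted edgeR p under 0.05 or non-overlapping genotypes, the highest of each role and those at or under 3 counts in a genotype, and from other pathway genes at most 8 per direction with an unadjusted p under 0.05. On simulated counts for 16353 genes with 200 changed by 2 on the log2 scale, edgeR found 172 (86%) among its 182 calls and DESeq2 found 169 (84.5%) among its 211. That change is larger than any in the list, where the largest log2 fold change was 1.55. The simulated spread followed the trend over all genes, without libraries that differ in cell types. These shares therefore do not give the power for genes of the list. Other cell types' marker lists also covered gut epithelium (3881 to 4505 CPM summed), liver (1153 to 2944 CPM) and neural cells (103 to 223 CPM), and were not used as covariates. Alternatives changed the tool, normalization, filter, spread estimate, replicate block, library code, GC offsets and libraries. The first digit of the library code was 8 in WT replicates 1 and 2 and KO replicate 1, and 9 in WT replicate 3 and KO replicates 2 and 3. It is thus partly tied to genotype, and what it marks is not stated. With it as a covariate, edgeR called 0 genes of the list, 9 had an unadjusted p under 0.05, and the median log2 fold change was 0.15. The matching shares of all genes are not given here.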

Additional observations from a re-analysis of the deposited data

How the results depend on the processing

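For the 9 genes of the list with an unadjusted edgeR p under 0.05 or non-overlapping genotypes, 126 log2 fold changes under 14 alternatives kept their direction, and 121 kept their side of the adjusted threshold. DESeq2 gave the other 5, with log2 fold changes of 0.45 for *Bmp7*, 0.84 for *Bmpr1a*, 0.85 for *Acvr2b*, 1.58 for *Smad6* and 1.04 for *Ltbp1*. The 9 genes were chosen on these same libraries, so their direction was largely fixed by that choice and is no separate support. Keeping their side of the threshold says little either, since edgeR's main fit called 0 of all 16353 genes. The count of genes called in the list was 0 in edgeR and 5 in DESeq2. Among other pathway genes it was 0 in edgeR, 7 in DESeq2, 3 without the filter on low counts and 0 to 3 with 1 library left out (3 without WT replicate 2). The cause of these changes was not tested. At an unadjusted edgeR p under 0.05, the 8 genes of the list became 5 with GC offsets. With 1 library left out they numbered 4 to 8 (4 without WT replicate 1). Genes whose genotypes did not overlap then numbered 7 to 13 instead of 7, since fewer libraries overlap less often. They were 13 without KO replicate 1 and 12 without KO replicate 3. Shares of all genes under alternatives other than DESeq2 are not given here, so these counts cannot be set beside them. For the list, the median log2 fold change ran from -0.0101 without KO replicate 1 to 0.27. For other pathway genes it ran from -0.0278 to 0.15 with 1 library left out (0.15 without WT replicate 3, 0.12 without KO replicate 2), and without WT replicate 3 and KO replicate 1 it was 0.10, with 5 instead of 12 genes at an unadjusted edgeR p under 0.05. The 8 genes not tested had too few counts, and for them limited depth and low expression cannot be told apart.

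Replicate numbers are shared by the genotypes, and deviations of same-numbered libraries correlated at r = -0.21, 0.25 and 0.08 across genes. Differently numbered libraries of the 2 genotypes gave r from -0.31 to 0.34. These values cannot show whether libraries were paired by origin. KO replicate 1 and WT replicate 2 share all digits of their library codes and correlated at r = -0.13, and what these digits mark is not stated. With the replicate block, 0 genes of the list were called and 10 had an unadjusted edgeR p under 0.05, the median log2 fold change was 0.12, and 0 other pathway genes were called (11 at an unadjusted p under 0.05).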
